A study of Mus musculus with 9 samples.

Results

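Wnt ligands, their Frizzled receptors and co-receptors, secreted Wnt antagonists, intracellular inhibitors and TCF/LEF factors were followed in C2C12, a mouse myoblast line in long use as a model of muscle cells. Candidates were protein-coding genes named as Wnt, Fzd, Sfrp or Dkk genes together with Lrp5, Lrp6, Ror2, Axin2, Nkd1, Nkd2, Lef1, Tcf7, Tcf7l1, Tcf7l2, Rspo3 and Wif1. A candidate was kept when it had at least 10 counts in 3 or more of the 9 RNA-seq libraries, which left 34 of 49 candidates out of 54697 lines of the count table. The 3 groups, each of 3 libraries numbered 1 to 3, were cells given 750 µM pentanoate for 48 h, cells given 750 µM butyrate for 48 h and control cells. Pentanoate and butyrate are short-chain fatty acids, and the pentanoate chain is longer by a single carbon. All groups had the genotype WT and were grown in DMEM with fetal bovine serum. For the control cells, the sources used here name no agent or vehicle. A treatment text in the labels calls the butyrate agent butyric acid. The title of the series names effects of the acids on myogenesis as its question. The cells are a single established line, so the values describe that line only.

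Wnt proteins are secreted ligands that bind Frizzled receptors. With the co-receptors Lrp5 and Lrp6 they stop the destruction of β-catenin, which then enters the nucleus and works with the TCF/LEF factors on target genes, among them Axin2, an inhibitor that feeds back on the pathway. Sfrp proteins bind Wnt ligands, Dkk proteins act on the Lrp co-receptors, and ligands such as Wnt5a and Wnt11 are best known for signalling that does not run through β-catenin. In skeletal muscle, Wnt signals take part in the formation of muscle in the embryo and in the behaviour of myoblasts during repair.

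Libraries held between 15829262 and 19305981 counts. Control library 3 stood apart from the others: mitochondrial genes took 3.95% of its counts, against 1.79% to 2.32% in the other 8 libraries, and results that rest on it are given with and without it. Whether libraries sharing a group were separate cultures is not stated, and the p-values therefore describe variation among these libraries, which could be technical only. Of the 10 myoblast markers looked for, 9 had at least 10 counts in each of 3 or more libraries. The summed level of the 10 ran from 1908 to 2436 CPM in pentanoate libraries, 1599 to 2072 CPM in butyrate libraries and 1644 to 2371 CPM in control libraries. Des and Cdon made up most of this sum. Myod1 had 34.8 to 55.0 CPM in butyrate and 70.6 to 96.7 CPM in control libraries, and Chrna1 105 to 174 and 228 to 316 CPM. Myog had 0.121 to 1.06 and 1.56 to 6.35 CPM. Myf5 was higher in butyrate libraries, at 42.5 to 47.1 against 25.0 to 37.4 CPM, and the other myoblast markers overlapped between butyrate and control. CPM stands for counts scaled by TMM to one common library size. Osteoblast markers (7 of 11 with 10 counts, Ibsp and Sost at 0) summed to 6334 to 7965 CPM in pentanoate, 9647 to 11684 CPM in butyrate and 5869 to 7283 CPM in control libraries. Spp1 and Col1a1 made up most of it. Spp1 had 5810 to 7547 CPM in butyrate and 2070 to 2899 CPM in control libraries. Phex and Bglap2, at or below 14.0 CPM, were also higher in butyrate libraries. Runx2 was lower there, at 79.2 to 86.4 against 106 to 109 CPM. Col1a1 and the remaining osteoblast markers above 0 overlapped between butyrate and control. Adipocyte markers (4 of 8, Lep at 0) summed to 67.3 to 124 CPM in pentanoate, 49.5 to 85.4 CPM in butyrate and 55.9 to 113 CPM in control libraries. Neuronal markers (4 of 8, Rbfox3 and Snap25 at 0) summed to 49.7 to 54.2 CPM in pentanoate, 46.0 to 49.7 CPM in butyrate and 18.3 to 18.6 CPM in control libraries. Stmn2 made up most of it with both acids, at 39.5 to 45.2 CPM in pentanoate and 28.9 to 32.2 CPM in butyrate libraries. It had 13.9 and 13.3 CPM in control libraries 1 and 2. Tubb3, at or below 7.61 CPM, was also higher with both acids. Map2 and Syt1 stayed at or below 0.454 CPM and overlapped with control. Blood markers (2 of 7, Adgre1 at 0) stayed at or below 6.16 CPM and endothelial and epithelial markers (1 of 8, Kdr and Epcam at 0) at or below 2.70 CPM in every library. The part of these marker levels in the results was not tested, and in bulk RNA fewer cells of a type and less RNA per cell cannot be told apart.

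Per kilobase of gene model, Wnt10a led the ligands, Fzd1 the Frizzled receptors, Lrp5 the co-receptors, Sfrp2 the secreted antagonists, Nkd2 the intracellular inhibitors and Tcf7 the TCF/LEF factors. Summed over the 10 ligands, the level was 107 ± 13.7 CPM per kb in pentanoate libraries, 76.6 ± 6.21 in butyrate libraries and 96.3 ± 12.9 in control libraries (SD, n = 3 each). Wnt10a alone held 63.7% to 65.9% of that sum in pentanoate libraries, 53.8% to 59.2% in butyrate libraries and 69.1% to 73.5% in control libraries. The 9 Frizzled genes summed to 243 ± 10.2, 172 ± 12.4 and 217 ± 14.7 CPM per kb in pentanoate, butyrate and control libraries (SD, n = 3 each), and the butyrate sums lay below all others. These sums are descriptions and were not tested.

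**Figure D1:**
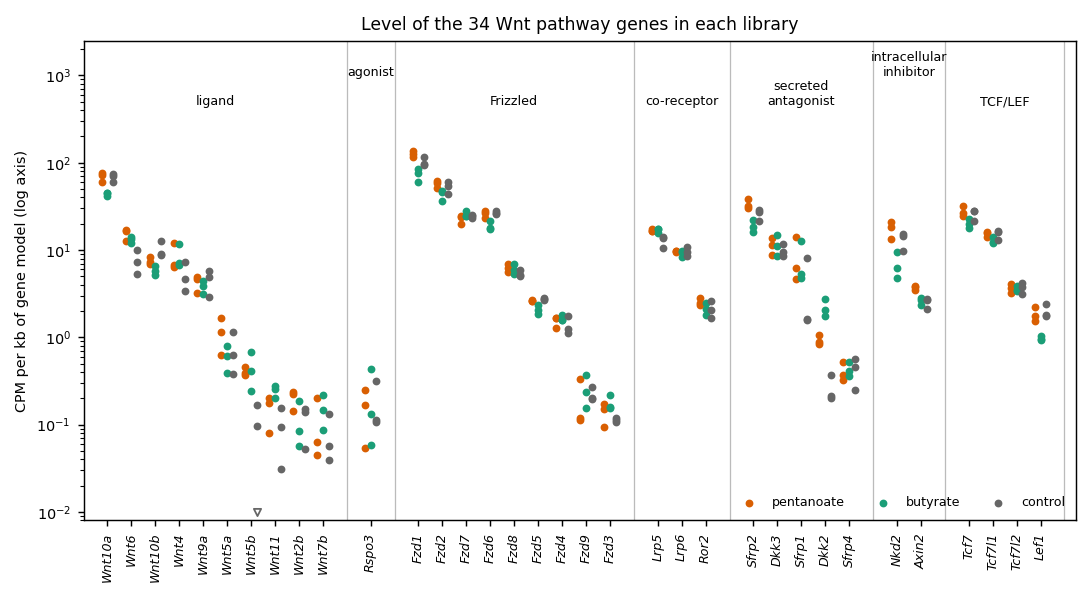
Level of each of the 34 genes in each library, in CPM per kb of gene model on a log axis, ordered by role and by mean level within the role. Orange points are pentanoate, green points butyrate and grey points control libraries, 3 each. The open triangle marks the single value of 0, that of Wnt5b in control library 1, which a log axis cannot show. Fzd1, Wnt10a and Fzd2 have the highest mean levels over all libraries and Wnt7b, Wnt2b and Fzd3 the lowest.

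Of the 15 candidates that were not kept, 4 (Fzd10, Wnt2, Wnt9b and Wif1) had 0 counts in all 9 libraries, which allows up to 0.0192 CPM over all libraries (3 counts), and 10 had 1 to 5 counts. The remaining one was Wnt1, a ligand of the β-catenin pathway whose gene lies 11.7 kb from Wnt10b on chromosome 15. It had 3 counts in pentanoate, 16 in butyrate and 2 in control libraries. The rate was 8.26 times as high in butyrate as in control libraries, with a 95% counting interval of 1.94 to 74.0, and 0.168 times as high in pentanoate as in butyrate libraries (0.0313 to 0.585). These intervals cover counting error only and not the spread between libraries.

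The promoters of 5 genes are shown because the results turn on these genes: Dkk2 and Lef1 as genes 860.9 kb apart on chromosome 3 that changed in opposite directions with butyrate, Wnt6 and Wnt10b as ligands that did so too, and Axin2 as the usual readout of β-catenin activity. Each is the 250 bases before the gene start from RefSeq (GRCm38.p6), 5′ to 3′ on the gene's strand, at chr3:132085042-132085291, plus strand for Dkk2, chr3:131110073-131110322, plus strand for Lef1, chr1:74771642-74771891, plus strand for Wnt6, chr15:98778151-98778400, minus strand for Wnt10b and chr11:108920099-108920348, plus strand for Axin2. Capitals mark the GC box, GGGCGG on either strand.
Dkk2: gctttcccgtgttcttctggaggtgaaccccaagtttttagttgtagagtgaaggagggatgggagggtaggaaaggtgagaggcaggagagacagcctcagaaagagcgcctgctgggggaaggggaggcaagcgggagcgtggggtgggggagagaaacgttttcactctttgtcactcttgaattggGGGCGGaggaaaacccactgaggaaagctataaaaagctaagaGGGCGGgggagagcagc
Lef1: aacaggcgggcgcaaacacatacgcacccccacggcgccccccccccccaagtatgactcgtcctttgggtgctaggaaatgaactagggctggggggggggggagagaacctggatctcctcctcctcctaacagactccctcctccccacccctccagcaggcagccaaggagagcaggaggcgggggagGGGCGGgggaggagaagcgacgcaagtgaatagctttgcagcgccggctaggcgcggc
Wnt6: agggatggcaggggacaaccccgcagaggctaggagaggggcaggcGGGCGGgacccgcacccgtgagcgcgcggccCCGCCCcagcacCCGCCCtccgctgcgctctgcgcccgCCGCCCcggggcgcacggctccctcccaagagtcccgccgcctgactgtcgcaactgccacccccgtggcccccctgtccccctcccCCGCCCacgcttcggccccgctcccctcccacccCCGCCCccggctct
Wnt10b: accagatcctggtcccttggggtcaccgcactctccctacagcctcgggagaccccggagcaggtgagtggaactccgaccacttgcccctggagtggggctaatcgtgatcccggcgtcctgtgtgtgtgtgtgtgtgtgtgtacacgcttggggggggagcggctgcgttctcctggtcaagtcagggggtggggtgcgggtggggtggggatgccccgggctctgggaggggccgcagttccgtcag
Axin2: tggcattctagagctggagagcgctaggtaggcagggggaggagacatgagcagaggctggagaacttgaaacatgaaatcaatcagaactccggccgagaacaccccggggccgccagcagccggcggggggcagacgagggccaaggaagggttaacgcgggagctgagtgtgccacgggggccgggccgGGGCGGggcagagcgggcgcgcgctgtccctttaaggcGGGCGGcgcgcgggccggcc
The GC box matched 2 times in Dkk2, 1 time in Lef1, 6 times in Wnt6, 0 times in Wnt10b and 2 times in Axin2. Promoter windows were found for 21 of the 34 genes, and 17 of those 21 (80.95%) held a GC box, against 44.45% of 16495 mouse promoter windows of the same length. Their median GC content was 72.8%, against 56.0% for all windows. A TCF/LEF motif (CTTTG with AA, AT, TA or TT after it, on either strand) was in 2 of the 21 windows (9.524%), those of Fzd7 and Wnt11, against 13.2% of all windows. A match describes the letters of the window and nothing more, and none of the 5 printed windows holds the TCF/LEF motif.

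Fewer of the 34 genes were called for pentanoate than for butyrate at the same dose and time. Pentanoate against control raised 2 of 34 genes (5.88%), Wnt6 and Dkk2, and lowered 0 by edgeR's quasi-likelihood test at an adjusted p under 0.05. Among all 14066 genes tested, 0.803% were called in that comparison (0.782% higher and 0.0213% lower). Butyrate against control raised Wnt6, Wnt5b and Dkk2 and lowered Wnt10a, Wnt10b, Fzd1, Fzd6, Nkd2 and Lef1, which is 9 of 34 genes (26.5%), against a background of 11.4% (6.43% higher and 4.95% lower). Wnt5b was kept among the 34 genes through its treated libraries alone, since no control library reached 10 counts, and without it the count was 8 of 33 (24.2%). At an unadjusted p under 0.05, 7 genes passed for pentanoate (13.7% of all genes) and 16 for butyrate (26% of all genes). DESeq2 called 3 for pentanoate, where 33 of the 34 had an adjusted p (2.63% of all genes), and 12 for butyrate (14.5% of all genes). The median log2 change over the 34 genes was 0.21 for pentanoate against control and 0.02 for butyrate against control, beside −0.01 and −0.02 over all genes. Both comparisons share the same control libraries.

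Set directly against butyrate, pentanoate left 7 of 34 genes (20.6%) called, with a background of 3.42% (1.81% higher and 1.61% lower). Wnt10a, Fzd1, Fzd6, Sfrp2, Nkd2 and Lef1 were higher in pentanoate libraries and Dkk2 was lower. At an unadjusted p under 0.05, 13 of the 34 passed (17.5% of all genes), and DESeq2 called 8 (6.76% of all genes). The median log2 difference was 0.13 over the 34 genes and 0.00 over all genes. The libraries of the compared groups did not overlap for 7 genes in pentanoate against control (6 above, 1 below), 13 in butyrate against control (6 above, 7 below) and 15 in pentanoate against butyrate (12 above, 3 below). The same was true of 18.5% of all genes in pentanoate against control (9.38% above, 9.12% below), 29.1% in butyrate against control (14.1% above, 14.9% below) and 30.8% in pentanoate against butyrate (15.7% above, 15.1% below). This single pair of acids was compared at one dose and one time.

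Library numbers paired the libraries across groups, and a fit with the number as a block called more genes: 9 of 34 for pentanoate against control (8 higher, 1 lower; background 3.65%), 17 for butyrate against control (7 higher, 10 lower; background 20.7%) and 12 for pentanoate against butyrate (11 higher, 1 lower; background 10.5%). Without control library 3 the counts were 2 for pentanoate against control (background 0.966%), 11 for butyrate against control (background 15.9%) and 10 for pentanoate against butyrate (background 10.2%). For pentanoate against control the count was 0 without pentanoate library 2, pentanoate library 3 or control library 2, and 1 without pentanoate library 1, control library 1 or any butyrate library, with 0.188% to 0.473% of all genes called in these fits. For butyrate against control it was 4 without butyrate library 2 or 3 (5.23% and 5.76% of all genes), and 6 without pentanoate library 1 (9.24%) or control library 1 (6.63%). For pentanoate against butyrate it was 0 without butyrate library 2 or pentanoate library 1, 1 without butyrate library 3, 2 without pentanoate library 3, and 4 without butyrate library 1 or pentanoate library 2, with 0.523% to 1.76% of all genes called in these fits. Of the 18 calls over the 3 comparisons, 3 were kept in every alternative, and these were Wnt10a, Dkk2 and Lef1 in butyrate against control.

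**Figure D2:**
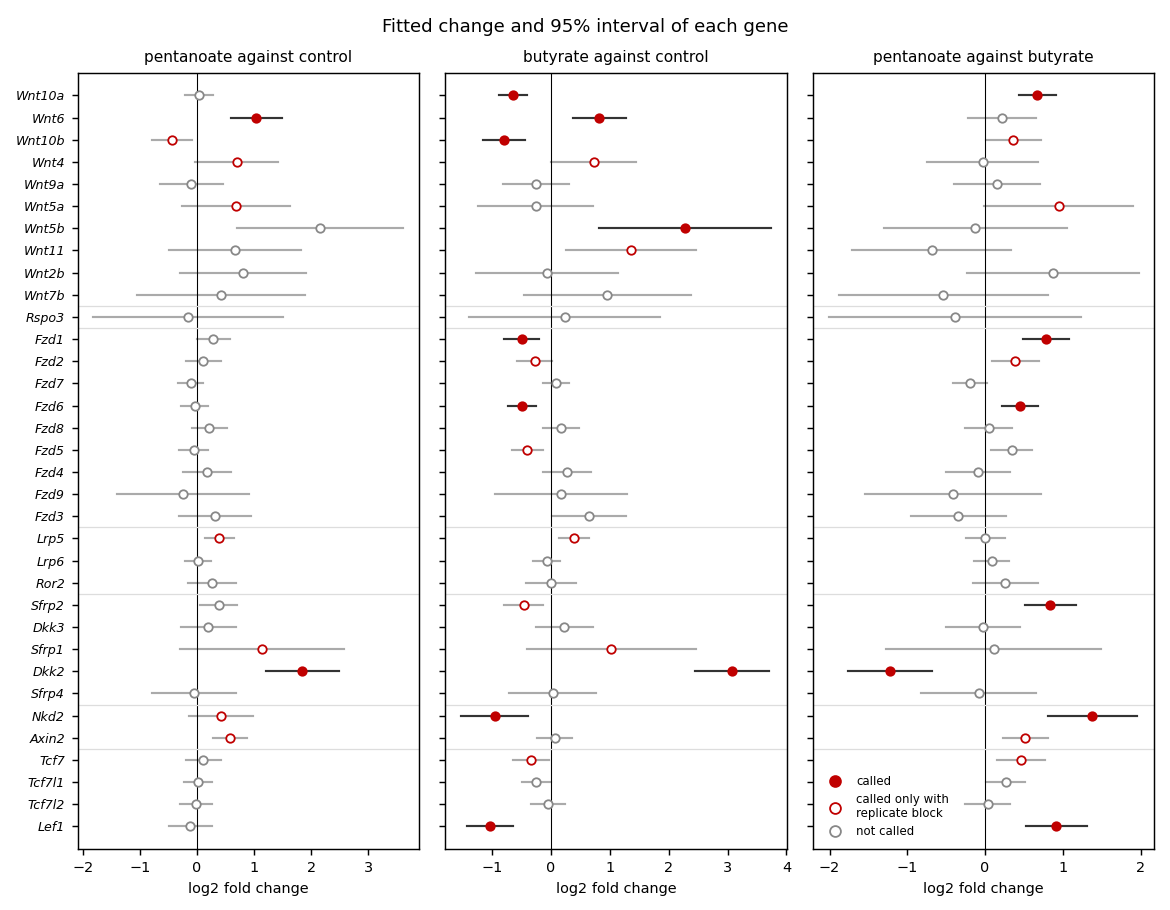
Fitted log2 fold change (point) and approximate 95% interval (line) of the 34 genes for pentanoate against control, butyrate against control and pentanoate against butyrate, grouped by role, with a separate scale on each horizontal axis. Filled red points are called at an adjusted p under 0.05, open red points only with the replicate block and grey points in neither fit. Dkk2 has the largest called change in both comparisons with control, 1.85 for pentanoate and 3.07 for butyrate.

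Among the ligands, the most abundant gene fell with butyrate and a less abundant one rose with both acids. Wnt10a (chr1:74791516-74804179, plus strand, ENSMUSG00000026167), a β-catenin ligand known for roles in skin, teeth and fat, had 177, 188 and 150.1 CPM in pentanoate libraries 1 to 3, 112, 110.0 and 101 CPM in butyrate libraries and 173, 181 and 148 CPM in control libraries. The butyrate libraries lay below all 6 others, and the pentanoate and control libraries overlapped. Its means were 172 ± 19.4, 108 ± 5.60 and 168 ± 17.2 CPM in pentanoate, butyrate and control libraries (SD, n = 3 each). It fell with butyrate by 0.64 in log2 terms (SE 0.11, adjusted p = 0.00457) and the call stood in 18 of 18 alternatives. Pentanoate against control gave 0.03 (95% interval −0.21 to 0.27, adjusted p = 0.918). Pentanoate libraries were higher than butyrate libraries by 0.67 (SE 0.11, adjusted p = 0.0108). Omitting butyrate library 2, butyrate library 3 or pentanoate library 1 ended this call (adjusted p 0.0614 to 0.0772, all alternatives 4.94e-06 to 0.0772).

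Wnt6 (chr1:74771892-74785322, plus strand, ENSMUSG00000033227), a ligand of epithelia and early somites, is the neighbour of Wnt10a on the same strand, 6.2 kb away, and it changed in the opposite direction with butyrate. Its levels were 37.0, 36.6 and 27.7 CPM in pentanoate libraries 1 to 3, 29.6, 31.2 and 26.4 CPM in butyrate libraries and 21.8, 15.9 and 11.5 CPM in control libraries. All pentanoate and butyrate libraries lay above all control libraries. The log2 change was 1.04 for pentanoate against control (SE 0.20, adjusted p = 0.0454) and 0.82 for butyrate against control (SE 0.20, adjusted p = 0.026). Both calls are near the threshold: over the alternatives the adjusted p ran from 0.000236 to 0.165 for pentanoate (8 of 18 called) and from 0.00175 to 0.101 for butyrate (13 of 18 called). Every omission of a pentanoate or butyrate library ended the pentanoate call, and so did that of control library 2. Every omission of a butyrate library, and that of control library 2, ended the butyrate call. Between the acids the difference was 0.22 (95% interval −0.22 to 0.65, adjusted p = 0.651).

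Wnt10b (chr15:98770712-98778150, minus strand, ENSMUSG00000022996), a β-catenin ligand known to favour bone and muscle over fat, had 24.5, 28.4 and 23.5 CPM in pentanoate libraries 1 to 3, 19.6, 22.2 and 17.6 CPM in butyrate libraries and 30.5, 43.1 and 29.5 CPM in control libraries. No butyrate or pentanoate library reached the lowest control library. It fell with butyrate by 0.80 in log2 terms (SE 0.16, adjusted p = 0.0101), and the call was lost in 1 alternative, without butyrate library 3 (adjusted p 0.0572, all alternatives 0.000143 to 0.0572). For pentanoate against control the value was −0.43 (adjusted p = 0.275, and 0.0435 with the replicate block). For pentanoate against butyrate it was 0.36 (adjusted p = 0.273, and 0.0406 with the block).

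Wnt5b, a ligand of β-catenin-independent signalling with roles in cartilage and fat, was close to the detection limit. It had 19, 19 and 22 counts in pentanoate libraries, 11, 18 and 30 counts in butyrate libraries and 0, 8 and 4 counts in control libraries. It was the only one of the 34 genes with no control library at 10 counts, so it passed the expression rule through the treated libraries. Its log2 change was 2.16 for pentanoate (SE 0.66, adjusted p = 0.204) and 2.28 for butyrate (SE 0.66, adjusted p = 0.0497, 8 of 17 alternatives called, 0.00852 to 0.218). With so few counts these fitted values depend on the prior count. The butyrate call was lost without butyrate library 2 or 3, without control library 1 or 3 and without any single pentanoate library.

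Another 3 ligands did not pass the test as planned but did so with the replicate block. Wnt4, a ligand of kidney and gonad development that also acts on myoblasts, had 28.0, 50.1 and 26.5 CPM in pentanoate libraries 1 to 3, 28.0, 49.2 and 29.7 CPM in butyrate libraries and 19.7, 30.7 and 14.1 CPM in control libraries. Library 2 was the highest in each group. The log2 change of Wnt4 was 0.69 for pentanoate (adjusted p = 0.383, block 0.0108) and 0.72 for butyrate (adjusted p = 0.192, block 0.00151). Wnt5a, the main ligand of β-catenin-independent signalling, had 8.95, 4.96 and 13.1 CPM in pentanoate libraries 1 to 3, 4.76, 3.02 and 6.26 CPM in butyrate libraries and 4.95, 2.96 and 9.01 CPM in control libraries. Within each library number the pentanoate library was the highest of the 3 groups. Pentanoate against butyrate gave 0.94 (adjusted p = 0.294, block 0.00543) and pentanoate against control 0.68 (adjusted p = 0.497, block 0.0356). Wnt11, a ligand of cell movement and heart development, was at or below 1.15 CPM in every library. It had 0.724, 0.827 and 0.331 CPM in pentanoate libraries, 1.06, 1.15 and 0.843 CPM in butyrate libraries and 0.641, 0.391 and 0.13 CPM in control libraries, and the butyrate libraries were above all others (butyrate against control 1.35, adjusted p = 0.113, block 0.0389). Wnt9a, at 9.66 to 19.2 CPM, and Wnt2b and Wnt7b, both at or below 1.06 CPM, passed the test in none of the 3 comparisons in either fit. The same was true of Rspo3, an agonist that keeps Frizzled receptors at the cell surface, at 0.165 to 1.33 CPM.

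**Figure D3:**
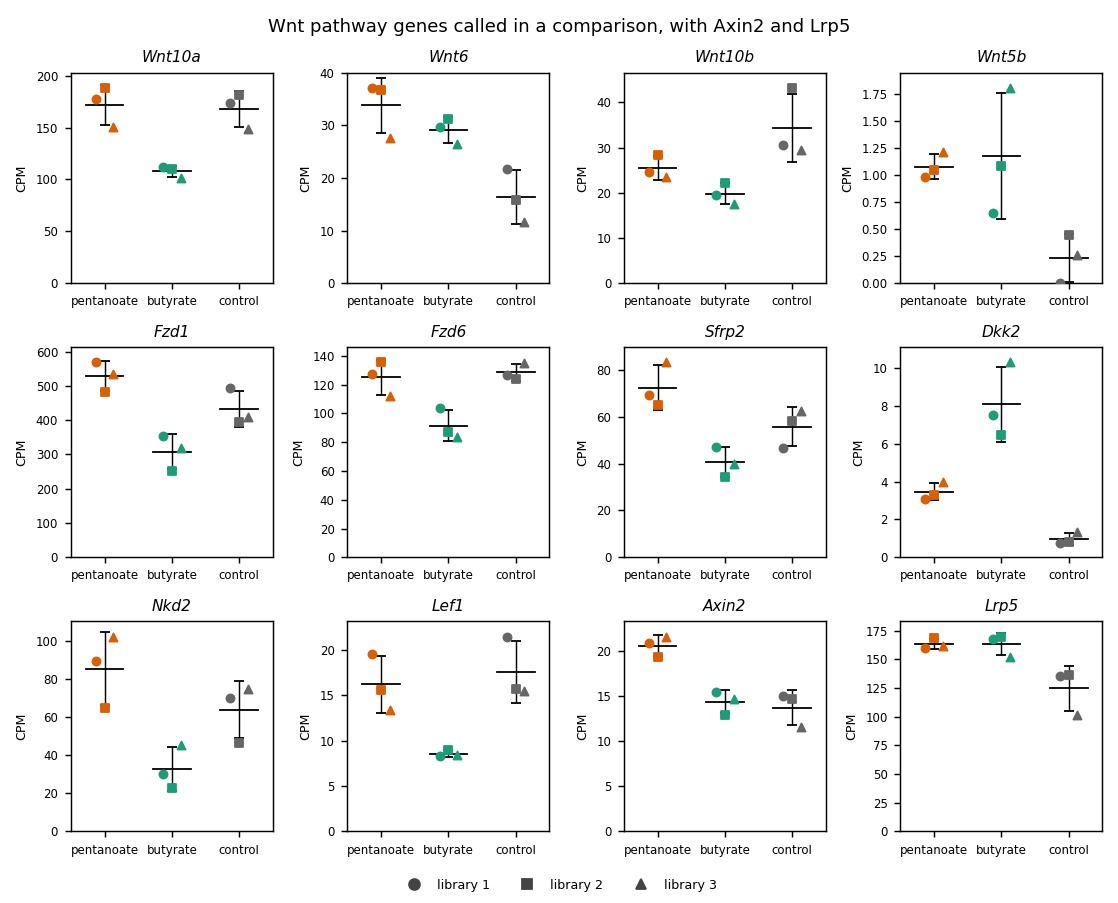
Level in CPM of the 10 genes called in any comparison and of Axin2 and Lrp5, with pentanoate, butyrate and control from left to right. Points are libraries (circle 1, square 2, triangle 3), and the lines give the mean and SD of 3 libraries. Wnt10a, Wnt10b, Fzd1, Fzd6, Sfrp2, Nkd2 and Lef1 have their lowest mean in butyrate libraries, whereas Dkk2 has its highest mean there, 8.10 ± 1.98 CPM.

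Of the 9 Frizzled receptors, butyrate lowered Fzd1 and Fzd6, and both were higher with pentanoate than with butyrate. Fzd1 (chr5:4753839-4758035, minus strand, ENSMUSG00000044674), the most abundant of the 34 genes per kb, had 568, 483 and 535 CPM in pentanoate libraries 1 to 3, 353, 252 and 318 CPM in butyrate libraries and 494, 396 and 411 CPM in control libraries. Every butyrate library was below every control and pentanoate library. Fzd1 fell with butyrate by 0.49 in log2 terms (SE 0.13, adjusted p = 0.0383), and 7 of 18 alternatives called it, with an adjusted p of 0.00169 to 0.153. The call was lost without butyrate library 2 or 3, without control library 1 and without any pentanoate library. Pentanoate against butyrate gave 0.78 (SE 0.13, adjusted p = 0.0134, 13 of 18 alternatives called, 1.35e-05 to 0.0757), and pentanoate against control 0.29 (adjusted p = 0.373).

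Fzd6 (chr15:39006034-39038188, plus strand, ENSMUSG00000022297), a receptor of planar cell polarity in skin and hair, had 128, 135 and 112 CPM in pentanoate libraries 1 to 3, 104, 87.1 and 83.8 CPM in butyrate libraries and 127, 124 and 135 CPM in control libraries. Its butyrate libraries were again the lowest 3 of 9. The log2 change was −0.49 for butyrate against control (SE 0.11, adjusted p = 0.014), lost without butyrate library 2 or 3 (adjusted p 0.074 and 0.0759, all alternatives 0.000849 to 0.0759). It was 0.45 for pentanoate against butyrate (SE 0.11, adjusted p = 0.0462, 8 of 18 alternatives called, 0.00567 to 0.223) and −0.04 for pentanoate against control (95% interval −0.27 to 0.19).

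Fzd2, the second Frizzled gene by level and a receptor of Wnt5a, had 214, 226 and 190.5 CPM in pentanoate libraries 1 to 3, 171, 176 and 135 CPM in butyrate libraries and 201, 221 and 161 CPM in control libraries. Its log2 change was −0.28 for butyrate against control (adjusted p = 0.232, block 0.0217) and 0.39 for pentanoate against butyrate (adjusted p = 0.166, block 0.0076). Without control library 3 its butyrate change passed the test (adjusted p 0.0414, all alternatives 0.0217 to 0.601). Fzd5 had 18.3, 18.1 and 18.5 CPM in pentanoate libraries 1 to 3, 16.4, 14.1 and 12.8 CPM in butyrate libraries and 18.4, 19.6 and 19.1 CPM in control libraries, with the butyrate libraries below the rest, and a log2 change of −0.40 with butyrate (adjusted p = 0.0522, block 0.0308). The remaining 5 receptors passed the test in no comparison in either fit. Fzd7, which is known to carry Wnt7a signals in muscle stem cells, stayed at 90.5 to 128 CPM in all libraries, with a log2 change of −0.11 for pentanoate (−0.33 to 0.11) and 0.09 for butyrate (−0.14 to 0.31). Fzd8 was at 16.8 to 23.3 CPM, Fzd4 at 7.49 to 12 CPM, Fzd3 at 1.21 to 2.78 CPM and Fzd9 at 0.259 to 0.846 CPM.

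Lrp5 (chr19:3584828-3686564, minus strand, ENSMUSG00000024913), a co-receptor of Frizzled proteins that is well known from bone, had 159.9, 168 and 162 CPM in pentanoate libraries 1 to 3, 168, 169.9 and 152 CPM in butyrate libraries and 135, 137 and 102 CPM in control libraries. All libraries of both acids were above all control libraries, and control library 3 was the lowest. The log2 change was 0.39 for pentanoate against control (SE 0.11, adjusted p = 0.175, block 0.04) and 0.39 for butyrate against control (SE 0.11, adjusted p = 0.0511, block 0.0118). The butyrate change did not pass the test as planned but passed it in 10 of 18 alternatives, among them the one without control library 3 (adjusted p 0.024, all alternatives 0.0118 to 0.173). Between the acids the difference was 0.00, with a 95% interval of −0.25 to 0.25. Lrp6, the related co-receptor, had 135, 132 and 130.2 CPM in pentanoate libraries 1 to 3, 132, 112 and 130.4 CPM in butyrate libraries and 129, 117 and 148 CPM in control libraries, and the groups overlapped. Its log2 change was 0.01 for pentanoate (−0.22 to 0.24) and −0.07 for butyrate (−0.30 to 0.16). Ror2, a receptor kinase for Wnt5a, was at 7.13 to 12.1 CPM and was not called.

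Of the 5 secreted antagonists, Dkk2 rose with both acids and Sfrp2 differed between them. Dkk2 (chr3:132085292-132180304, plus strand, ENSMUSG00000028031) encodes a secreted ligand of Lrp5 and Lrp6 that inhibits or, in some settings, weakly activates the pathway. It was a low gene, with 60, 60 and 72 counts in pentanoate libraries, 128, 107 and 171 counts in butyrate libraries and 13, 14 and 21 counts in control libraries. Scaled, these were 3.10, 3.31 and 3.97 CPM in pentanoate libraries 1 to 3, 7.52, 6.47 and 10.3 CPM in butyrate libraries and 0.757, 0.782 and 1.36 CPM in control libraries. The 3 groups did not overlap, and pentanoate lay between butyrate and control.

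Against control, Dkk2 was 8.4 times as high with butyrate, a log2 change of 3.07 (SE 0.28, 95% interval 2.44 to 3.70, adjusted p = 0.000222), called in 17 of 17 alternatives. With pentanoate it was 3.59 times as high, a log2 change of 1.85 (SE 0.29, adjusted p = 0.0181). That call was lost without pentanoate library 2 or 3, without control library 1 or 2 and with the 2 groups alone, and the adjusted p ran from 1.08e-05 to 0.0929 over the alternatives. Pentanoate against butyrate gave −1.23 (SE 0.25, adjusted p = 0.0247), lost without any single pentanoate or butyrate library (adjusted p 0.0523 to 0.126, all alternatives 0.000465 to 0.126).

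Sfrp2, a secreted protein with a Frizzled-like domain that is expressed in muscle repair, had 69.3, 65.1 and 83.2 CPM in pentanoate libraries 1 to 3, 47.2, 34.4 and 40 CPM in butyrate libraries and 46.5, 58.4 and 62.5 CPM in control libraries. Its pentanoate libraries were above all 6 others. Pentanoate against butyrate gave a log2 difference of 0.84 (SE 0.15, adjusted p = 0.016, 13 of 18 alternatives called, 2.87e-05 to 0.0895). Neither acid passed the test against control, at 0.38 for pentanoate (adjusted p = 0.311) and −0.46 for butyrate (adjusted p = 0.077, block 0.0413).

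Sfrp1, a close relative of Sfrp2, had 26.9, 20.1 and 61.3 CPM in pentanoate libraries 1 to 3, 23.5, 20.9 and 56.1 CPM in butyrate libraries and 6.99, 7.09 and 35.6 CPM in control libraries. Library 3 was the highest in each group, and within each library number both acids were above control. The log2 change was 1.14 for pentanoate (adjusted p = 0.464) and 1.03 for butyrate (adjusted p = 0.357). With the replicate block these were 1.33 (adjusted p = 0.00846) and 1.23 (adjusted p = 0.00251). Without the 3 libraries numbered 3 both also passed the test, with an adjusted p of 0.0287 for pentanoate (all alternatives 0.00846 to 0.82) and 0.00238 for butyrate (0.00238 to 0.765). Dkk3, an atypical member of the Dkk family, was at 28.4 to 50.1 CPM and Sfrp4 at 1.05 to 2.33 CPM, and neither was called.

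Of the 2 intracellular inhibitors, butyrate lowered Nkd2. Nkd2 (chr13:73818534-73847631, minus strand, ENSMUSG00000021567), which binds Dishevelled, had 89.3, 64.6 and 102 CPM in pentanoate libraries 1 to 3, 30.4, 22.8 and 45.4 CPM in butyrate libraries and 70.1, 46.6 and 74.6 CPM in control libraries. Each butyrate library was below every pentanoate and control library, and library 2 was the lowest in every group. Nkd2 fell with butyrate by 0.96 in log2 terms (SE 0.26, adjusted p = 0.0382, 8 of 18 alternatives called, 0.000209 to 0.184). The call was lost without butyrate library 1 or 2, without control library 1 or 3, without pentanoate library 1 and without a filter on low counts (adjusted p 0.184). Pentanoate against control gave 0.42 (adjusted p = 0.484, block 0.0479). Pentanoate libraries were higher than butyrate libraries by 1.38 (SE 0.26, adjusted p = 0.0192, 13 of 18 alternatives called, 1.63e-05 to 0.113).

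Axin2 (chr11:108920349-108950783, plus strand, ENSMUSG00000000142), a scaffold of the complex that destroys β-catenin and a target gene of the pathway, had 20.8, 19.2 and 21.6 CPM in pentanoate libraries 1 to 3, 15.4, 12.9 and 14.7 CPM in butyrate libraries and 15.0, 14.6 and 11.5 CPM in control libraries. All pentanoate libraries were above all others, and butyrate and control libraries overlapped. Axin2 did not pass the test against control with pentanoate, at 0.58 (SE 0.13, adjusted p = 0.0848), but did so with the replicate block (0.0356), with DESeq2 (0.00873) and without a filter on low counts (0.0476), over a range of 0.00873 to 0.34. Pentanoate against butyrate gave 0.52 (SE 0.13, adjusted p = 0.0599, block 0.0266), and without control library 3 the adjusted p was 0.0114 (all alternatives 0.0114 to 0.291). For butyrate against control the change was 0.06, with a 95% interval of −0.23 to 0.36.

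Among the TCF/LEF factors, Lef1 fell with butyrate. Lef1 (chr3:131110471-131224356, plus strand, ENSMUSG00000027985), a β-catenin partner and itself a target gene in many tissues, had 19.6, 15.6 and 13.4 CPM in pentanoate libraries 1 to 3, 8.28, 9 and 8.43 CPM in butyrate libraries and 21.4, 15.6 and 15.4 CPM in control libraries. The highest butyrate library was below the lowest library of the other groups, and pentanoate and control libraries overlapped. Lef1 fell with butyrate by 1.03 in log2 terms (SE 0.18, adjusted p = 0.0047), called in 18 of 18 alternatives. Pentanoate against control gave −0.11 (95% interval −0.49 to 0.26, adjusted p = 0.794). Pentanoate against butyrate gave 0.92 (SE 0.18, adjusted p = 0.0209, 13 of 18 alternatives called, 0.000363 to 0.112). Lef1 and Dkk2 lie on the plus strand of chromosome 3 with 860.9 kb between them. An annotated gene on the opposite strand, Gm43352, shares 1208 of the 8788 exon bases of Lef1, and it had 57 counts in all libraries, against 2219 for Lef1. The sources used here do not say whether counting used the strand.

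Tcf7, the most abundant factor of the family per kb, had 70.7, 84.7 and 64.1 CPM in pentanoate libraries 1 to 3, 52.8, 59.8 and 47.5 CPM in butyrate libraries and 73.4, 72.6 and 56.8 CPM in control libraries. Its log2 change was −0.34 for butyrate against control (adjusted p = 0.149, block 0.016) and 0.46 for pentanoate against butyrate (adjusted p = 0.11, block 0.00761). Both passed the test without control library 3, at an adjusted p of 0.031 for butyrate against control (all alternatives 0.016 to 0.422) and 0.0256 for pentanoate against butyrate (0.00761 to 0.392). Tcf7l1, a factor known mostly as a repressor, was at 46.9 to 64.2 CPM and was not called. Tcf7l2 had 32.3, 35.7 and 27.9 CPM in pentanoate libraries 1 to 3, 30.7, 33.5 and 29.3 CPM in butyrate libraries and 27.5, 32.7 and 36.7 CPM in control libraries, with a log2 change of −0.02 for pentanoate (−0.31 to 0.27) and −0.05 for butyrate (−0.34 to 0.24).

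Library number moved with the level of many of these genes. In 24 of the 34 genes (70.6%), library 3 lay on the same side of the mean of libraries 1 and 2 in all 3 groups, which held for 40.8% of all genes tested. For Sfrp1 the log2 difference of library 3 from that mean was 1.39 in pentanoate, 1.34 in butyrate and 2.32 in control libraries. What the numbers stand for, such as a day or a passage, is not stated.

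**Figure D4:**
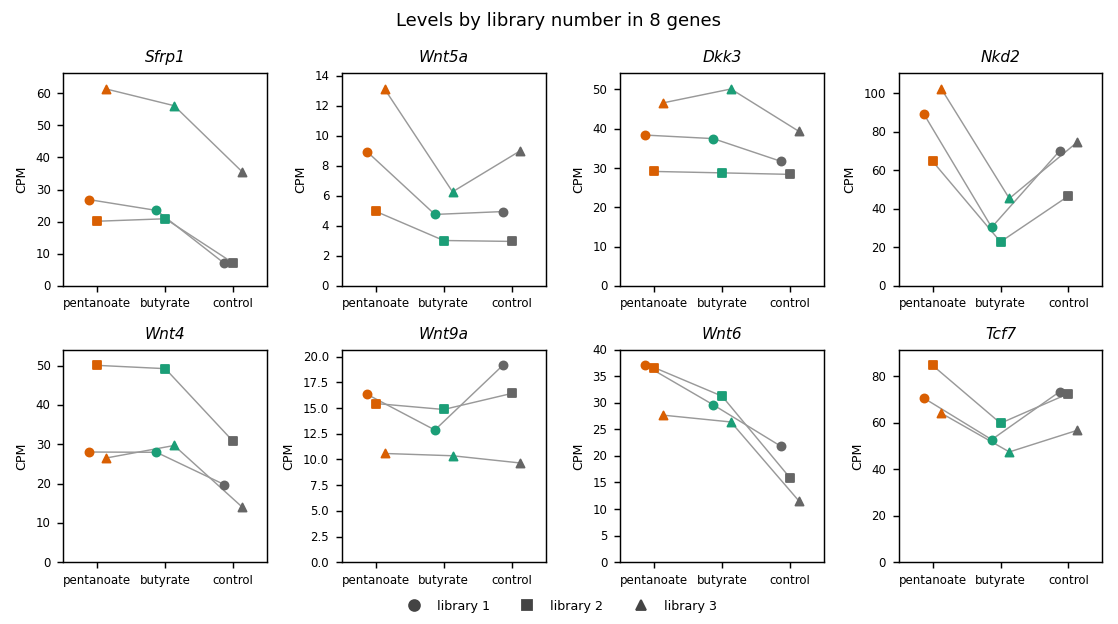
Level in CPM of 8 genes, chosen after their values were seen, in pentanoate, butyrate and control libraries, with lines joining libraries of the same number (circle 1, square 2, triangle 3). Library 3 is the highest for Sfrp1, Wnt5a and Dkk3 in every group and the lowest for Wnt6, Wnt9a and Tcf7, and library 2 is the highest for Wnt4 and the lowest for Nkd2.

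Other genes of the pathway were read from 8 lists with 133 members, of which 110 were tested. Butyrate against control called 15 of the 110, 3 higher (Ccnd1, Notum and Nfatc2) and 12 lower, beside the background of 11.4% for all genes. The calls of Notum and Nfatc2 were lost in every omission of a single butyrate or pentanoate library and without a filter on low counts (adjusted p 0.0545 to 0.131). Nfatc2 was a low gene, at 1.40 to 3.08 CPM. Pentanoate against control called 0 of the 110 by edgeR's quasi-likelihood test, beside 0.803% of all genes. It called 4 with the replicate block (3.65% of all genes) and 2 with DESeq2 (2.63% of all genes). In pentanoate against butyrate 11 of the 110 were higher and 0 lower, beside 1.81% higher and 1.61% lower of all genes. With the replicate block, 33 of the 110 were called for butyrate against control (12 higher, 21 lower) and 22 for pentanoate against butyrate (20 higher, 2 lower), beside 20.7% and 10.5% of all genes. The median log2 value was 0.03 for pentanoate against control, −0.04 for butyrate against control and 0.09 for pentanoate against butyrate. None of the 26 tested genes for β-catenin, its destruction complex and Dishevelled was called in either comparison with control without the block. With it, 0 were called for pentanoate against control and 3 for butyrate against control, namely Dvl3, one of the Dishevelled genes, and Amer1, an APC-binding protein, both lower, and Caprin2 higher (adjusted p 0.0243, 0.0405 and 0.0422). These 3 genes were chosen after their values were seen, and Dvl3 also passed with DESeq2 (0.0418) and without control library 3 (0.0186), over alternatives of 0.0186 to 0.265. With the block, Dvl3 was also higher in pentanoate than in butyrate libraries, by 0.42 on the log2 scale (adjusted p 0.013). Over the alternatives of that comparison its adjusted p ran from 0.00733 to 0.242. Ctnnb1, which encodes β-catenin, had 601 ± 40.9, 579 ± 12.7 and 579 ± 21 CPM in pentanoate, butyrate and control libraries (SD, n = 3 each). Of 6 other secreted antagonists listed, 0 were expressed enough to be tested. Without control library 3 the counts were 0 for pentanoate against control, 24 for butyrate against control and 23 for pentanoate against butyrate, of 111 genes tested (backgrounds 0.966%, 15.9% and 10.2%). The count for butyrate against control was 7 without butyrate library 2 (5.23% of all genes) and 9 without butyrate library 3 (5.76%). The 11 for pentanoate against butyrate became 0 to 5 without any one pentanoate or butyrate library (0.523% to 1.76% of all genes). It became 6 without control library 1 (2.66%).

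Among the genes of smallest p in butyrate against control, Lrp4, a co-receptor of the muscle endplate that also binds Wnt antagonists, fell by 0.93 on the log2 scale (adjusted p = 0.0021), with 86.9 ± 12.2 CPM in butyrate and 165 ± 24.4 CPM in control libraries. Kremen1, a receptor for Dkk proteins, fell by 0.66 (adjusted p = 0.00411). Among genes often cited as targets, Jag1 fell by 1.01 (adjusted p = 0.00548), whereas Ccnd1, the gene of cyclin D1, rose by 1.04 (adjusted p = 0.00427) to 436 ± 81.9 CPM in butyrate, against 212 ± 38.6 CPM in control libraries. Set against butyrate, pentanoate libraries had higher Lrp4 by 0.71, Kremen1 by 0.58, Tle2, a co-repressor of TCF/LEF factors, by 0.79 and Daam2, a partner of Dishevelled, by 0.68 on the log2 scale (adjusted p 0.00823 to 0.0201). Each of these 4 differences between the acids was lost in 2 or more omissions of a single library, with an adjusted p of 0.0521 to 0.131 there.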

How the data were processed

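Raw counts of the 9 libraries, as deposited, come in a table of gene symbols, coordinates and gene length, and its whole-number values show no normalization by the authors. Reads were placed on GRCm38 (mm10), per the submitters' processing notes. Trizol RNA went into SMARTER mRNA-Seq libraries, per the labels' protocols. For aligner, counter and use of strand: not given in the sources used here. The deposited gene lengths, an annotation value of the authors, gave CPM per kb, the only scale used to compare genes. Coordinates of 32 of the 34 genes were identical in GENCODE M21, and 10 share exon bases with a gene on the opposite strand.

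Counts were filtered with filterByExpr, scaled by TMM and tested with edgeR 4.0.16 in R 4.3.3 (glmQLFit with robust estimation, glmQLFTest) in one fit of all 9 libraries (6 residual degrees of freedom), with Benjamini-Hochberg adjustment over 14066 genes in each comparison and a threshold of 0.05. The test was checked on simulated data. Standard errors are the log2 change over the square root of F, and 95% intervals use the t distribution; both are approximate. The common biological coefficient of variation was 14.42%. Depth, 15829262 to 19305981 counts, limits the genes under about 1 CPM. Groups and library numbers came from the labels. Deviations from group means correlated at 0.2009 to 0.4135 in the 9 same-numbered pairs of libraries, over the criterion of 0.1 (18 other pairs: −0.3316 to 0.01329), so the numbers were taken to pair libraries and a replicate block is given where it changes a call. Alternatives were other scalings, other filters, DESeq2 1.42.0, the block, each library left out, the 2 groups alone and, chosen after seeing the data, omission of the libraries numbered 3.

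Named in full are genes called in any comparison with or without the block, Axin2, Lrp5, Lrp6, Lef1, Tcf7l2, the most abundant gene of each role and, of the other pathway genes, at most 5 of smallest p per comparison and Ctnnb1. An item that this rule names is not reported here. The genes, lists and rule were chosen with earlier results of these data known. No set test was run. Figures used matplotlib 3.10.9 and promoter windows came from RefSeq.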

Additional observations from a re-analysis of the deposited data

How the results depend on the processing

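Over the 66 pairs of a named gene and a comparison, 1170 alternative values were computed: 91 lost a call, 47 gained one and 0 reversed a called direction. With the replicate block, 9 of the 34 genes were called for pentanoate against control, 17 for butyrate against control and 12 for pentanoate against butyrate. In the same order, 4, 33 and 22 of the other pathway genes were called. Of all genes, 514, 2916 and 1483 were called (3.65%, 20.7% and 10.5%). With the 2 groups alone, 0 and 5 of the 31 genes tested were called for pentanoate and butyrate against control. The shares of all genes called there were 0.183% and 7.34%. Other pathway genes called for pentanoate against butyrate numbered 22, beside 9.89% of all genes. Calls among all genes were 25, 1004 and 1365 in the 3 comparisons. A filter at a mean of 5 CPM left 25 of the 34 genes to test and removed Dkk2. Of these 25, 0 were called for pentanoate against control, beside 0.767% of all genes. Calls among all genes were 1023 for butyrate against control and 319 for pentanoate against butyrate. Without a filter, 1 other pathway gene and 278 of all genes (1.05%) were called for pentanoate against control. DESeq2 called 2 and 23 other pathway genes for pentanoate and butyrate against control, beside 2.63% and 14.5% of all genes. It called 363 and 951 of all genes for pentanoate against control and pentanoate against butyrate. Omitting the libraries numbered 3, chosen after seeing the data, called 4 of the 33 genes tested for pentanoate against butyrate, beside 2.6% of all genes. For pentanoate against control it called 38 of all genes. Leaving out 1 library at a time called 0 to 2 of the 34 genes for pentanoate against control. It called 4 to 11 for butyrate against control and 0 to 10 for pentanoate against butyrate. Among the other pathway genes it called 0, 7 to 24 and 0 to 23 in the same order. Among all genes it called 27 to 139 (0.188% to 0.966%), 753 to 2285 (5.23% to 15.9%) and 75 to 1469 (0.523% to 10.2%). Fewer samples or genes enter several of these fits, and otherwise the cause was not tested. The share of higher genes among all calls was 56.5% for butyrate against control, 68.8% with upper-quartile scaling and 65.1% with scaling by totals, and 53.0% for pentanoate against butyrate and 41.1% with upper-quartile scaling, while the median of all genes moved by under 0.1. Depth limits Wnt5b, Wnt11, Wnt2b, Wnt7b, Fzd9 and Rspo3, at or below 1.81 CPM in every library.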
